A study of Homo sapiens with 8 samples.

Results

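The clustered protocadherin beta genes lie in a row in band q31 of human chromosome 5, and each encodes a cadherin-like adhesion receptor of the cell surface from a promoter of its own. The 10 genes described here are PCDHB2, PCDHB3, PCDHB4, PCDHB5, PCDHB6, PCDHB9, PCDHB10, PCDHB13, PCDHB14 and PCDHB15, out of 18852 genes with a probe of 1 symbol on the array. They were taken by symbol, with every probe that the array annotation assigns to them. That gave 15 probes, 2 each for PCDHB2, PCDHB3, PCDHB6, PCDHB9 and PCDHB10 and 1 for each of the other 5 genes. The set was proposed with earlier results of these data known, so the values of these genes are a description and carry no p-value.

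Gene expression was measured on 8 Illumina bead arrays with 48802 probes, 2 arrays for each of 4 human embryonic stem cell lines. H9 (WA-09) is an established embryonic stem cell line and the parent of the other 3. Clone 3 is a wild-type control clone derived from it. Clones 2 and 5 carry a bacterial artificial chromosome (BAC) with the locus of ZFX, which encodes a zinc finger transcription factor on the X chromosome. Per the labels, they were picked by drug resistance, and their higher ZFX level was checked by qRT-PCR. All 4 lines were kept in the usual culture for such cells, and each clone stands for its condition as 1 clone. Whether clone 3 passed through drug selection too is not in the labels, nor is whether both arrays of a line had RNA from separate cultures. The spread within a line may therefore be technical, and it is the only spread that the p-values for pairs of lines take in.

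Clustered protocadherins form an alpha, a beta and a gamma group side by side. A beta gene has its whole coding sequence in a large exon of its own, whereas variable exons of the alpha and gamma groups are spliced to constant exons shared within the group. The proteins bind like molecules on a neighbouring cell. In neurons, each cell is known to use a largely random subset of these promoters, and the mixture on its surface lets a neuron tell its own branches from those of other cells. Most of these promoters are known to hold a conserved element with the core CGCT, at which CTCF and cohesin bind, and DNA methylation is known to keep unused promoters silent.

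Promoter sequences were taken from RefSeq (build GRCh38.p14), in windows from 250 bases before to 50 bases after the annotated start of a gene. Of the 19 PCDHB genes on the array, pseudogenes included, 14 had an entry, among them 9 of the 10 genes described here, and PCDHB6 is named only. The 10-base word GGTGGCGCTG was chosen after the sequences were seen, as the word shared by most of them, and both strands were searched. Its first 9 letters, GGTGGCGCT, were searched as a second word, and CGCT lies within both. The 10-base word stood in 12 of the 14 PCDHB promoters, 8 of them from the genes described here, and in 97 of all 35116 promoters in the table (0.276%). It was in 0 of 13 alpha, 0 of 20 gamma and 0 of 10 non-clustered protocadherin promoters. The 9-base word stood in 13 of the 14 PCDHB promoters, those of all 9 matched genes described here included, and in 176 of the 35116 (0.501%). PCDHB1 was the PCDHB gene with an entry that lacked it. CGCT alone was in 24584 of the 35116 promoters (70%). Below are 40 bases around the word in each of the 9 matched genes, shown because the word is what their promoters share, with the matched letters in capitals and the strand of the gene given for each.
PCDHB2, chr5:141094540-141094579, plus strand: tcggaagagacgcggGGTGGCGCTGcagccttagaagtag
PCDHB3, chr5:141100389-141100428, plus strand: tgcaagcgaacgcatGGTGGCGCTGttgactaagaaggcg
PCDHB4, chr5:141121719-141121758, plus strand: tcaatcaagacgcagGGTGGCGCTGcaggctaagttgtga
PCDHB5, chr5:141135175-141135214, plus strand: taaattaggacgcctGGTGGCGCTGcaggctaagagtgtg
PCDHB9, chr5:141187070-141187109, plus strand: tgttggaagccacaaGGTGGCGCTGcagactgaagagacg
PCDHB10, chr5:141192295-141192334, plus strand: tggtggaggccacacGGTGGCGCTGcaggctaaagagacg
PCDHB13, chr5:141213861-141213900, plus strand: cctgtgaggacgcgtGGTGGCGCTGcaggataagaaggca
PCDHB14, chr5:141223259-141223298, plus strand: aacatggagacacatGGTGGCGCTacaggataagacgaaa
PCDHB15, chr5:141245310-141245349, plus strand: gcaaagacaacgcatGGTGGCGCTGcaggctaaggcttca

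The matches were all on the strand of the gene, but not at one distance from its start. The first base of the word lay at -60 in PCDHB2, -69 in PCDHB3, -84 in PCDHB4, -16 in PCDHB5, -76 in PCDHB9, -43 in PCDHB10 and PCDHB13, -69 in PCDHB14 and -70 in PCDHB15, counted in bases from the start, with -1 as the base before it. Among the genes described here, PCDHB5 had it nearest to the annotated start. A match is a description of the letters and not a binding site. The 250 bases before the start follow for the 3 genes that were detected on every array, again with the word in capitals.
PCDHB2, chr5:141094365-141094614, plus strand: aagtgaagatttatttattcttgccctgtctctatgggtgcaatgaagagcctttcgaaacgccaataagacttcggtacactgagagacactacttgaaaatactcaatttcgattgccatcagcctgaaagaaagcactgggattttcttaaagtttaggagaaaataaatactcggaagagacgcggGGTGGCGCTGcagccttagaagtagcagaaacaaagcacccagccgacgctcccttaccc
PCDHB5, chr5:141134956-141135205, plus strand: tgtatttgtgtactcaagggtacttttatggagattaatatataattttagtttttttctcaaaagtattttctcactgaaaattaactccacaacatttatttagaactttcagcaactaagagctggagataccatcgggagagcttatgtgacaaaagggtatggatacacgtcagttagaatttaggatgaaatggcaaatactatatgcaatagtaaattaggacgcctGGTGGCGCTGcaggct
PCDHB9, chr5:141186911-141187160, plus strand: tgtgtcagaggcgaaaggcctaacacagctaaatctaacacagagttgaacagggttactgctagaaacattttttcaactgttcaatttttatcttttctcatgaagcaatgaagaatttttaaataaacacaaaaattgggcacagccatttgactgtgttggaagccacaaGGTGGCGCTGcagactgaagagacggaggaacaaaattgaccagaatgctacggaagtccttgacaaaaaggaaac

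**Figure D1:**
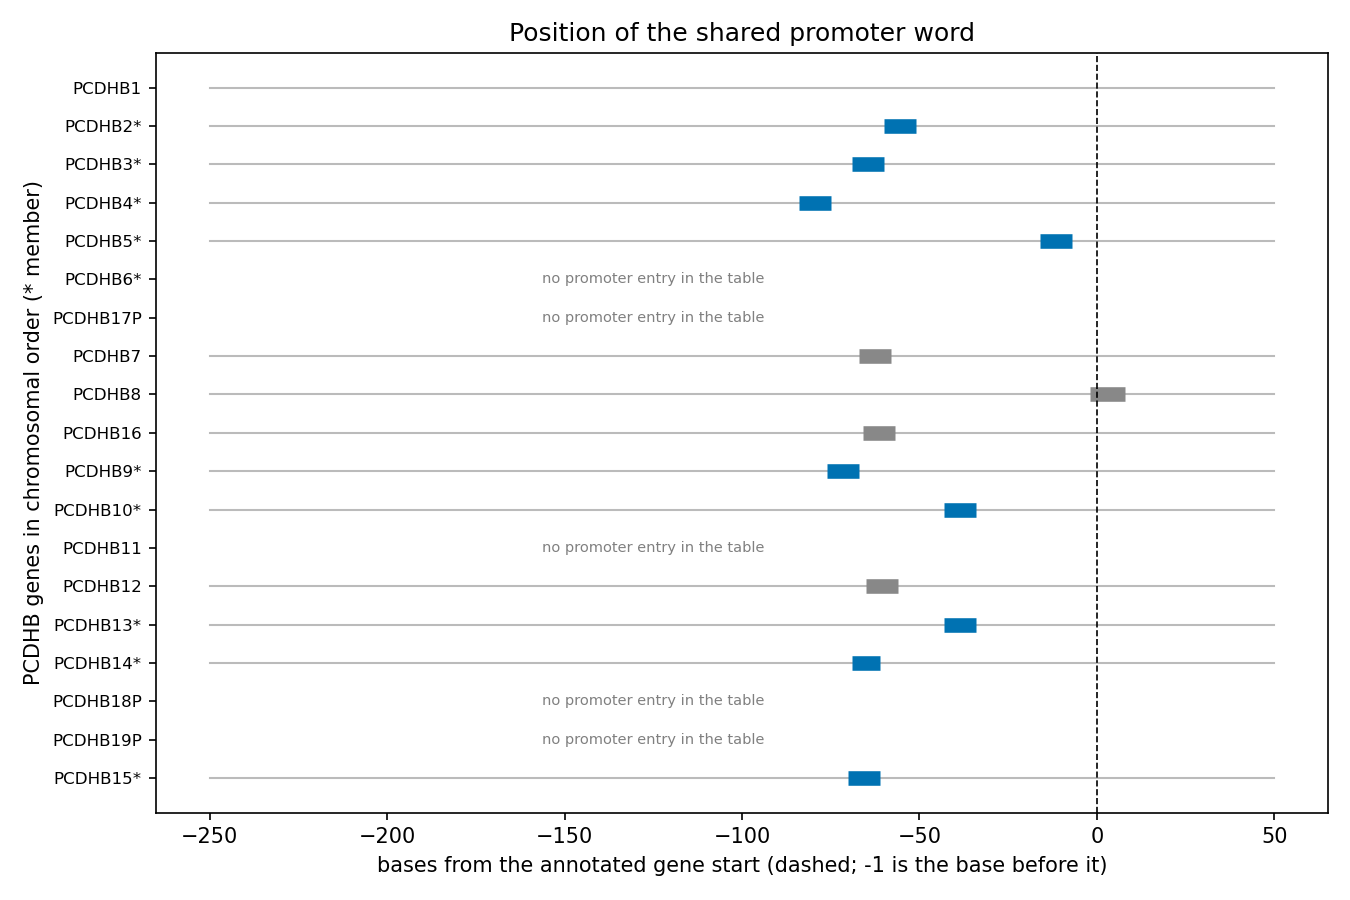
Position of the shared promoter word (horizontal axis, bases from the annotated gene start) for PCDHB genes in chromosomal order (vertical axis, asterisks mark the genes described here). Most matches lie between -84 and -43, while that of PCDHB5 lies at -16 and that of PCDHB8 at -2.

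The arrays detected 19177 to 20588 probes each at a detection p under 0.05, and their number limits the precision. Across probes, log2 values of arrays of a line correlated at 0.994, while clone 3 correlated with the others at 0.981 to 0.985, below the 0.986 to 0.992 among those. ZFX, the check of the labels, had a mean log2 intensity of 6.02 ± 0.0509 in H9 and 6.19 ± 0.0943 in clone 3 (SD, n = 2 each). In clones 2 and 5 it was 7.60 ± 0.0681 and 7.30 ± 0.318 (SD, n = 2 each). The ZFX lines lay above the control lines by 1.34 (log2, SE 0.163, limma adjusted p = 0.000241). All values below are log2 normalized intensities, or differences of them, for 1 probe. Levels are not compared between genes, since probes differ in how they bind, and differences of dim genes come out small on this scale. The marker sums further on are the exception, as they add linear normalized intensities over the probes of a list. Beta genes resemble each other in sequence, and probe sequences were not used here, so signal from a related gene cannot be told apart from that of the gene named.

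Of the 15 probes, 7 were detected on at least 2 arrays and entered the tests, which left 6 of the 10 genes: PCDHB2, PCDHB3, PCDHB4, PCDHB5, PCDHB9 and PCDHB14. PCDHB2, PCDHB5 and PCDHB9 were detected on all 8 arrays, PCDHB14 on 7, PCDHB3 on 6 and PCDHB4 on 5. The other 4 genes, PCDHB6, PCDHB10, PCDHB13 and PCDHB15, did not pass this filter. PCDHB6, PCDHB13 and PCDHB15 were not detected on any array. PCDHB10 was detected only on the second H9 array, at 5.06 with a detection p of 0.0198. The 8 probes that did not pass, second probes of PCDHB3 and PCDHB9 among them, lay between 4.24 and 5.06, where the dimmest detected probe of each array lay at 4.76 to 4.82. The array therefore gives no level for these 4 genes, apart from the 1 PCDHB10 value.

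PCDHB5 had the widest span of line means among the 6 tested genes. Its log2 intensity was 7.97 and 7.86 in H9, 6.31 and 6.37 in clone 3, 8.23 and 8.29 in ZFX clone 2, and 8.46 and 8.29 in ZFX clone 5. Both clone 3 arrays were low, both ZFX lines lay above H9, and only the ZFX lines overlapped each other. Clone 3 was also lowest in the intensities before any correction or scaling, where H9 and the ZFX lines overlapped. Those were 117 and 120 in clone 3, 339 and 252 in H9, 329 and 308 in clone 2, and 451 and 309 in clone 5. The line means of the log2 values spanned 2.03, against a spread within lines of 0.0770 (pooled SD). Clone 3 lay below H9 by a log2 difference of -1.58 (SE 0.105), or 2.99-fold. Clone 2 lay above H9 by 0.34 (SE 0.105), clone 5 by 0.45 (SE 0.105), and clone 5 above clone 2 by 0.11 (SE 0.105). In the authors' processed values these 4 differences were -0.92, 0.26, 0.34 and 0.09. In such bulk samples, fewer cells with PCDHB5 and less PCDHB5 RNA in each cell cannot be told apart.

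PCDHB9 had another order of lines. Its log2 intensity was 7.06 and 6.87 in H9, 7.45 and 7.57 in clone 3, 7.77 and 7.52 in clone 2, and 7.004 and 7.34 in clone 5. Clone 2 and clone 3 were high and overlapped each other, and clone 5 and H9 were low and overlapped each other. The line means spanned 0.682, and the spread within lines was 0.165 (pooled SD). Against H9, the log2 difference was 0.54 (SE 0.125) in clone 3, 0.68 (SE 0.125) in clone 2 and 0.21 (SE 0.125) in clone 5. Clone 5 lay below clone 2 by -0.48 (SE 0.125). In the authors' processed values these 4 differences were 0.33, 0.42, 0.12 and -0.30. The ZFX clones thus overlapped in PCDHB5 and did not overlap in PCDHB9. The other PCDHB9 probe was not detected on any array.

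PCDHB2 had the narrowest spread within lines of the 6 genes. Its brighter probe read 9.30 and 9.25 in H9, 9.41 and 9.41 in clone 3, 9.18 and 9.16 in clone 2, and 9.11 and 9.13 in clone 5. Clone 3 was highest and clone 5 lowest, and no neighbours in the order of clone 3, H9, clone 2 and clone 5 overlapped. The intensities before any correction or scaling were 786 and 586 in H9 and 751.5 and 740 in clone 3. They were 598 and 536 in clone 2 and 688 and 516 in clone 5. In these intensities H9 overlapped each of the other lines, so the order was not seen there. The line means of the log2 values spanned only 0.293, with a spread within lines of 0.0201 (pooled SD). The order of the log2 values was the reverse of that of PCDHB5. Over the 8 arrays the log2 values of both genes had a Pearson correlation of -0.935. The 2 arrays of a line are not separate lines, so this describes 4 lines. The dimmer PCDHB2 probe read 6.68 and 6.51 in H9, 6.25 and 6.25 in clone 2, 6.29 and 6.30 in clone 3, and 6.53 and 6.52 in clone 5. It was highest in H9 and clone 5, unlike the brighter probe, so both probes of this gene disagreed on the order of the lines. Its log2 differences from H9 were -0.30 in clone 3, -0.35 in clone 2 and -0.07 in clone 5, against 0.13, -0.10 and -0.16 for the brighter one.

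**Figure D2:**
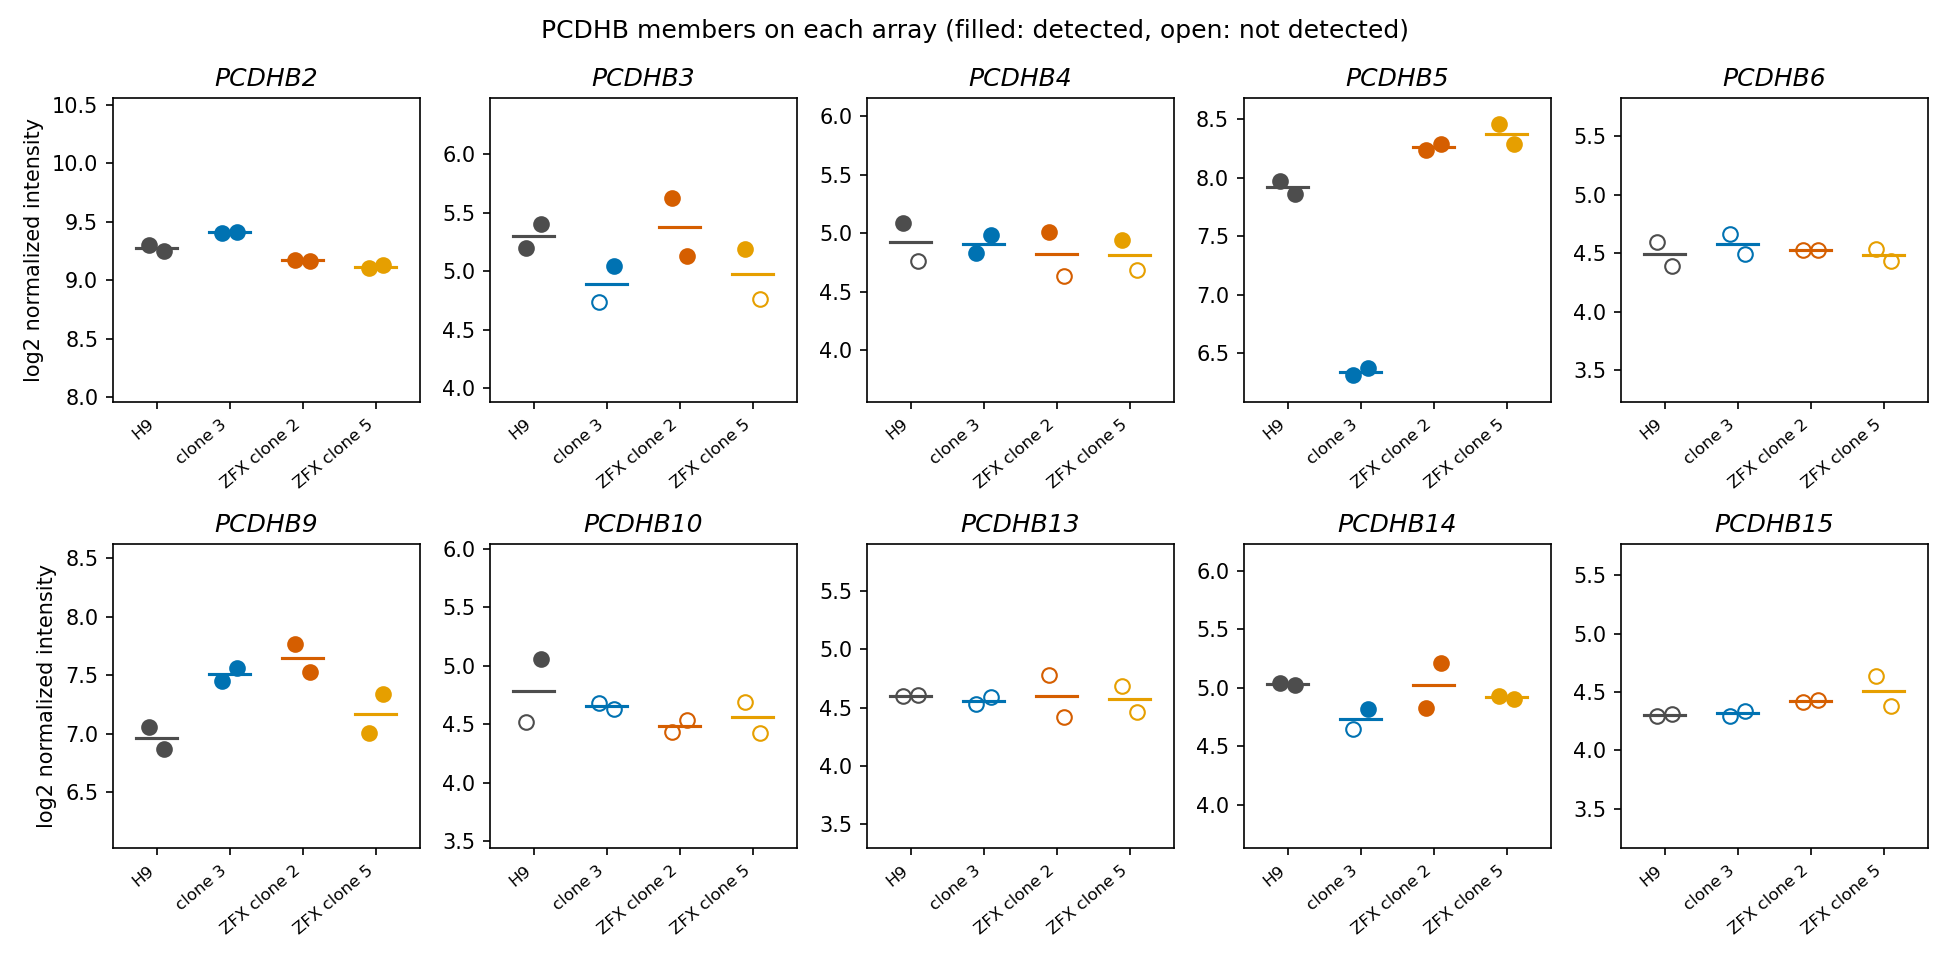
Log2 normalized intensity (vertical axis) of the 10 genes described here on each array, by line (horizontal axis). Each gene is shown by its probe of highest mean, with filled points for detected and open points for undetected values. PCDHB5 is at 6.31 and 6.37 in clone 3 and at 7.86 or above in the other lines, while PCDHB3, PCDHB4 and PCDHB14 stay at 5.63 or below throughout.

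PCDHB3, PCDHB4 and PCDHB14 were close to the detection limit, and their lines overlapped more. PCDHB3 read 5.20 and 5.40 in H9, 4.74 and 5.05 in clone 3, 5.63 and 5.13 in clone 2, and 5.19 and 4.77 in clone 5. Clone 2 overlapped H9 and clone 5 overlapped clone 3, with a spread within lines of 0.267 (pooled SD) against a span of the line means of 0.488. PCDHB14 read 5.04 and 5.03 in H9, 4.64 and 4.82 in clone 3, 4.83 and 5.21 in clone 2, and 4.93 and 4.91 in clone 5. Clone 3 was lowest and did not overlap clone 5, its neighbour in the order, while H9, clone 2 and clone 5 overlapped in turn. PCDHB4 read 5.09 and 4.77 in H9, 4.83 and 4.98 in clone 3, 5.01 and 4.63 in clone 2, and 4.95 and 4.69 in clone 5. Its line means spanned 0.108, less than its spread within lines of 0.206 (pooled SD), and all 4 lines overlapped.

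The comparison of both ZFX lines with both control lines asks what goes with extra ZFX. A gene was called at a limma adjusted p under 0.05, and 1.68% of all 19124 tests were called here. Of the 6 genes, 1 was called, PCDHB5. Its ZFX lines had a mean of 8.32 and its control lines a mean of 7.13, a log2 difference of 1.19 (SE 0.292), or 2.28-fold, and 0.76 in the authors' processed values. The 4 ZFX arrays lay above the 4 control arrays, but the controls were not alike, as H9 lay nearer to the ZFX lines than to clone 3. With H9 as the only control line, an alternative added after the values were seen, the difference was 0.40 (SE 0.101) and was called. In that alternative extra ZFX cannot be told apart from being a clone of H9. The call against both control lines was lost without any 1 array of clone 3 (1.01 and 1.04), clone 2 (1.21 and 1.19) or clone 5 (1.14 and 1.22). It held without either H9 array (1.35 and 1.33). In all it held in 7 of 20 alternatives, over which the difference ran from 0.40 to 1.35. On line means, 2 lines against 2, PCDHB5 was not called. The fit gives every gene the same line correlation, 0.353. The PCDHB5 line means spanned 2.03, against a pooled SD within lines of 0.0770. The SE of 0.292 therefore understates the spread between its lines, and the call rests on that SE. The other 5 genes had differences between -0.20 (PCDHB2) and 0.17 (PCDHB9). The median over the 6 genes was 0.0857, beside -0.00155 over all tests.

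Pairs of lines were compared over the spread within lines, and 3 of the 4 comparisons share H9. Between the controls, clone 3 against H9, 2 of the 6 genes were called, PCDHB5 lower and PCDHB9 higher, beside 19.8% of all tests. Their median was -0.161, beside -0.0113 over all tests. In clone 2 against H9, PCDHB5 and PCDHB9 were called as higher, 2 of 6 genes beside 15.2% of all tests, with a median of 0.0332 beside -0.00585. In clone 5 against H9, PCDHB5 was called as higher, 1 of 6 genes beside 5.54% of all tests, with a median of -0.111 beside -0.000364. Between the ZFX clones, PCDHB9 was called as lower in clone 5, 1 of 6 genes beside 3.27% of all tests, with a median of -0.0784 beside -0.000801. The genes were chosen with these comparisons known, so nothing is read from these counts.

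Calls of PCDHB5 and PCDHB9 held unequally over other ways to process the arrays. PCDHB5 in clone 3 against H9 was called in 17 of 17 alternatives, at -1.64 to -0.92. It was called in 11 of 17 in clone 2 against H9, at 0.215 to 0.397, and in 13 of 17 in clone 5 against H9, at 0.34 to 0.541. Its calls in both ZFX clones against H9 were lost without H9 replicate 2 (0.29 and 0.40), that in clone 2 also without either array of clone 2 (0.37 and 0.32), and that in clone 5 without clone 5 replicate 1 (0.37). PCDHB9 was called in 16 of 17 alternatives in clone 3 against H9, at 0.325 to 0.633, and in 16 of 17 in clone 2 against H9, at 0.42 to 0.809. In clone 5 against clone 2 it was called in 12 of 17, at -0.645 to -0.30. That call was lost without clone 5 replicate 1 (-0.31) and without clone 2 replicate 1 (-0.35).

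**Figure D3:**
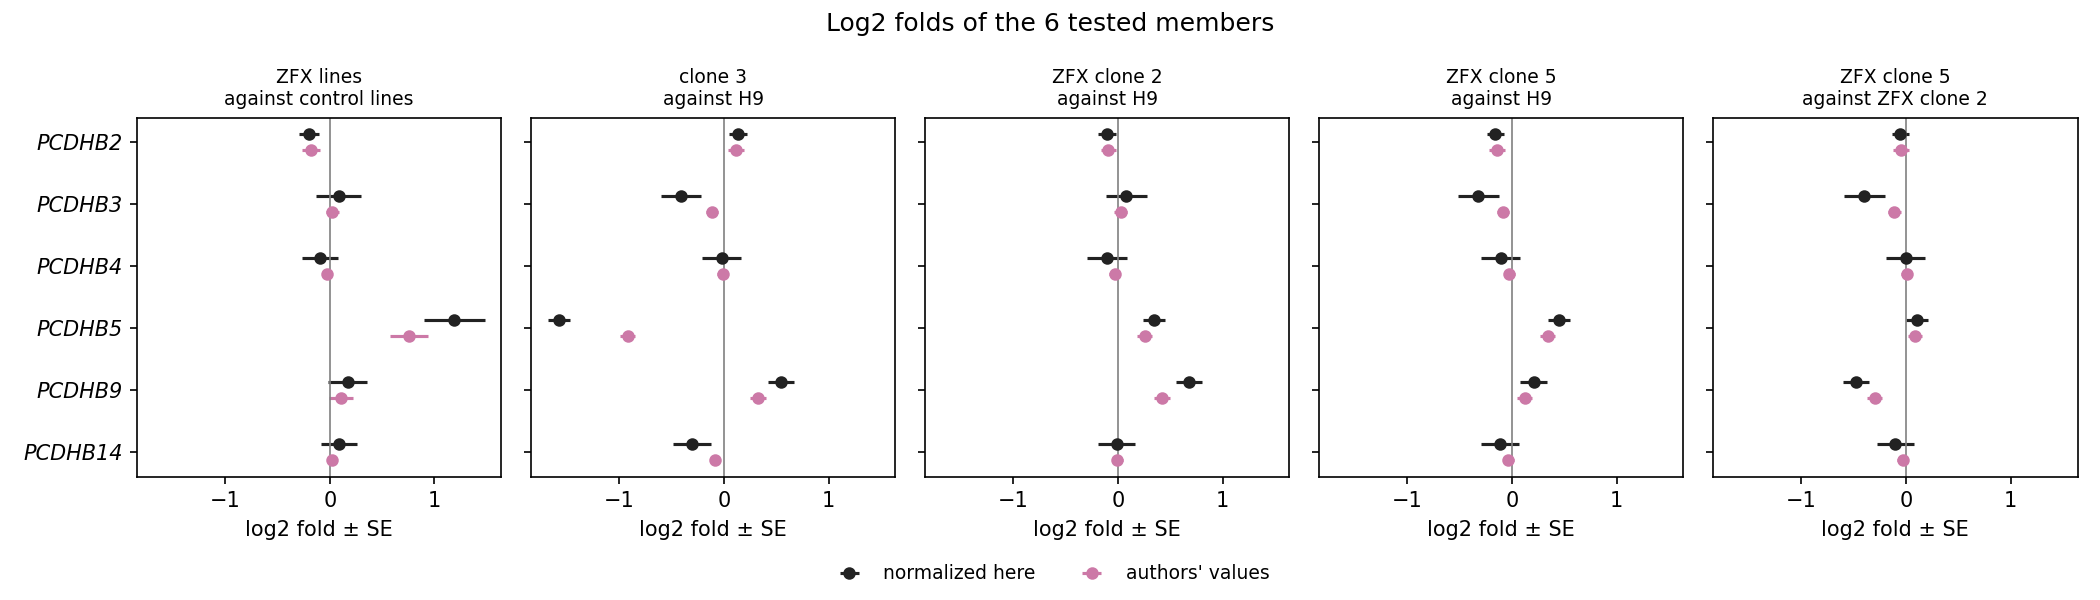
Log2 differences with their SE (horizontal axes) of the 6 tested genes (vertical axis) in the 5 comparisons (panels), from the normalized intensities and from the authors' processed values. PCDHB5 stands farthest from 0 in the comparison of clone 3 with H9, at -1.58 and -0.92, and the dim genes lie closer to 0 in the authors' values.

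The other 9 PCDHB genes on the array had 12 probes, and 5 genes were tested: PCDHB11, PCDHB12 and the pseudogenes PCDHB17P, PCDHB18P and PCDHB19P. In clone 3 against H9, 1 of the 5 was lower and 0 were higher, beside 19.8% of all tests called. PCDHB17P, which stands between PCDHB6 and PCDHB7, fell by 1.12 on the log2 scale (SE 0.145, limma adjusted p = 1.28e-06), from a mean of 7.08 in H9 to 5.96 in clone 3, with 6.80 in clone 2 and 7.02 in clone 5. It fell by 0.54 in the authors' processed values and kept its call in 17 of 17 alternatives. Its level was thus lowest in the same clone as that of PCDHB5, 2 places before it in the row of genes. The other PCDHB17P probe was not detected on any array. In clone 5 against H9, beside 5.54% of all tests called, 1 of the 5 was higher, PCDHB18P, by 0.61 (SE 0.18, limma adjusted p = 0.0411). That call held in 6 of 17 alternatives, and without any 1 array of H9 or clone 5 the limma adjusted p was 0.0590 to 0.320. In the other 3 comparisons 0 of the 5 were called, beside 1.68% to 15.2% of all tests.

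PCDHB12 and PCDHB18P were detected on 0 of 2 arrays of clone 3 and on both arrays of every other line. They thus passed the filter only through the lines other than clone 3. In H9 both were near the detection limit, with detection p of 0.0184 to 0.0395, where the dimmest detected probes lay at 4.76 to 4.82. How many other kept probes were detected in this way was not counted. PCDHB12 read 4.43 and 4.61 in clone 3, and its line means were 4.93 in H9, 5.09 in clone 2 and 5.25 in clone 5. PCDHB18P read 4.40 and 4.68 in clone 3, with means of 4.93, 5.36 and 5.54 in those lines. Neither gene was called in clone 3 against H9, with limma adjusted p = 0.0990 for PCDHB12. PCDHB19P did not follow this order, with means of 5.84 in H9, 5.97 in clone 3, 6.20 in clone 2 and 5.93 in clone 5. Over the 5 genes the median difference of clone 3 from H9 was -0.388.

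**Figure D4:**
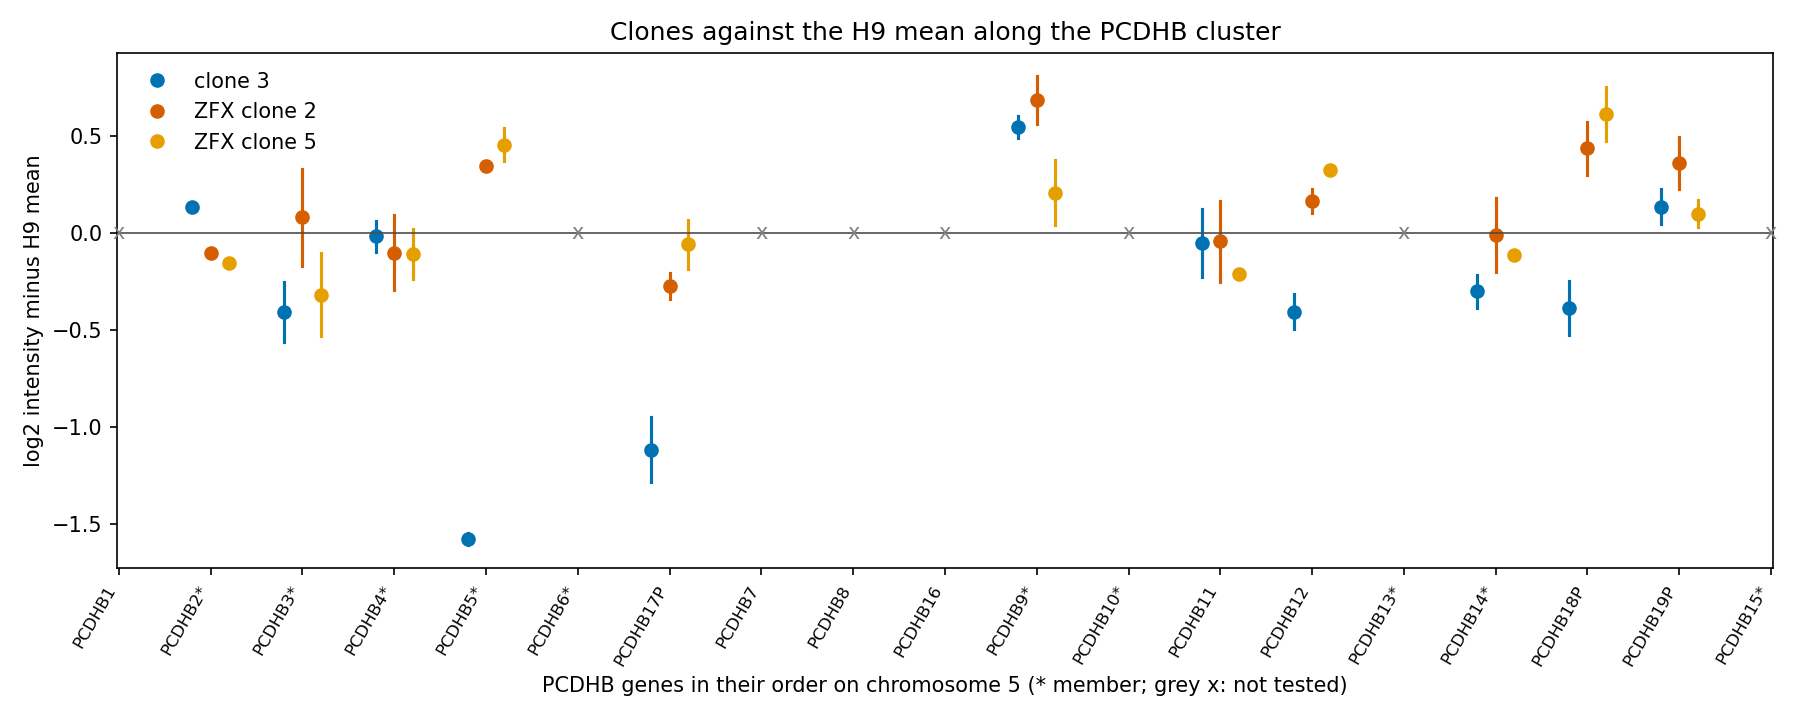
Difference of each clone from the H9 mean (vertical axis, log2 intensity) for the PCDHB genes in their order on chromosome 5 (horizontal axis, asterisks mark the genes described here, grey crosses genes that were not tested). Clone 3 lies lowest at PCDHB5 (-1.58) and PCDHB17P (-1.12), with tested genes elsewhere in the row between -0.41 and 0.54.

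The neighbouring groups of the same cluster held 1 call, in clone 3 against H9, where 19.8% of all tests were called. Of 15 alpha genes, which encode receptors with the shared alpha tail, 11 were tested. PCDHAC2, the last alpha promoter before the beta group, rose in clone 3 against H9 by 0.65 (SE 0.18, limma adjusted p = 0.0098), from 5.04 to 5.69. That call was lost without H9 replicate 1 or clone 3 replicate 2. In the other 4 comparisons 0 of 11 alpha genes were called, beside 1.68% to 15.2% of all tests. The alpha medians ran from -0.0851 to 0.12 over all 5. Of 23 gamma genes 6 were tested, and 0 were called in any of the 5 comparisons, with medians from -0.0664 to 0.0234. Of all tests, 1.68% to 19.8% were called in these comparisons. Probes in constant exons would read several genes of a group, and their place was not looked up.

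Non-clustered protocadherins are each encoded at a locus of their own. Of 10 tested, 2 were higher and 2 lower in clone 3 against H9, where 19.8% of all tests were called. PCDH10 rose by 2.38 (SE 0.156, limma adjusted p = 1.29e-12), from 5.59 to 7.97, and PCDH20 by 1.06 (SE 0.144, limma adjusted p = 2.65e-06). PCDH1 fell by 1.12 (SE 0.168, limma adjusted p = 1.13e-05) and PCDH18 by 0.39 (SE 0.0971, limma adjusted p = 0.00413). In the ZFX lines against the control lines 1 was higher and 1 lower, beside 1.68% of all tests called. PCDH18 rose by 0.83 (SE 0.135, limma adjusted p = 0.00260), and PCDH11X, encoded on the X chromosome, fell by 0.999 (SE 0.152, limma adjusted p = 0.00170). Both were also called in each ZFX clone against H9, PCDH18 by 0.74 and 0.53 and PCDH11X by -1.09 and -1.15 in clones 2 and 5. PCDH10 was called as lower in clone 5 against H9, by -0.70 (limma adjusted p = 0.00488), and 0 of 10 were called between the ZFX clones. Of all tests, 15.2% were called in clone 2 and 5.54% in clone 5 against H9, and 3.27% between the ZFX clones.

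Genes beside or between the clusters were tested for whether a wider stretch of band q31 moved with PCDHB5. Of 18 tested neighbours, 5 were lower and 0 higher in clone 3 against H9, beside 19.8% of all tests called in that comparison. RELL2, a membrane protein of the RELT family, fell by 1.28 (SE 0.136, limma adjusted p = 3.93e-08), from 6.65 to 5.37. The other 4 fell by 0.40 or less: ZMAT2, a splicing factor (-0.40), the histone deacetylase HDAC3 (-0.29), ARAP3, a regulator of small GTPases (-0.29), and the actin nucleator DIAPH1 (-0.26), which held in 4 of 17 alternatives. TAF7, a TFIID subunit encoded between the beta and gamma groups, was tested and not called. In clone 2 against H9, 2 were higher and 4 lower, led by ARAP3 (0.59), WDR55 (-0.51), DIAPH1 (-0.49) and SLC35A4 (-0.47). In clone 5 against H9, ARAP3 (0.56) and the ubiquitin ligase RNF14 (0.48) were higher and ZMAT2 (-0.33) lower. In the ZFX lines against the control lines only ARAP3 was called, 0.72 higher (SE 0.106, limma adjusted p = 0.00114), and between the ZFX clones 0 of 18. Of all tests, 15.2% were called in clone 2 and 5.54% in clone 5 against H9. In the ZFX lines against the control lines that share was 1.68%, and between the ZFX clones 3.27%. The median of the 18 in clone 3 against H9 was 0.0326.

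Genes known to act on protocadherin promoters, their chromatin or their DNA loops were all tested where the array had a named probe, 20 of 22. In clone 3 against H9, 1 of the 20 was higher and 7 were lower, beside 19.8% of all tests called. STAG1, a cohesin subunit, rose by 0.62 (limma adjusted p = 7.29e-05). The de novo DNA methyltransferases DNMT3A and DNMT3B fell by 0.53 (limma adjusted p = 0.0176) and 0.51 (limma adjusted p = 2.94e-05), and ATF7IP, a partner of the histone methyltransferase SETDB1, by 0.53 (limma adjusted p = 0.0320). The call of ATF7IP held in 8 of 17 alternatives, and those of DNMT3A and DNMT3B in 14 of 17 and 15 of 16. The other 4 lower genes were the cohesin subunit RAD21 (-0.48), the histone methyltransferase EHMT2 (-0.39), the corepressor TRIM28 (-0.34) and CTCF (-0.29), named after their values were seen. In clone 2 against H9, 2 were lower, REST (-0.68, limma adjusted p = 0.00659), a repressor of neuronal genes, and DNMT3A (-0.48, limma adjusted p = 0.0410). Of all tests, 15.2% were called in clone 2 against H9. In the other 3 comparisons 0 of 20 were called, beside 1.68% to 5.54% of all tests. What part these changes have in the PCDHB5 level was not tested.

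Cell type markers moved with clone 3 as well. Embryonic stem cell markers were detected in every line, 9 of 9 with a probe. Their summed normalized intensities were 24963 to 25209.7 in H9, 21729.6 to 23624.5 in clone 3, 23156 to 23672 in clone 2 and 23518 to 23810.4 in clone 5. Of the 9, 1 was higher and 3 lower in clone 3 than in H9, and 2 were lower in each ZFX clone than in H9. The counts of called markers stand beside 19.8% of all tests in clone 3 against H9, 15.2% in clone 2 and 5.54% in clone 5. In the ZFX lines against the control lines that share was 1.68%, and between the ZFX clones 3.27%. Mesendoderm markers were far brighter in clone 3 than elsewhere. Their summed level over 5 tested genes was 2216 to 2361 in clone 3, 161 to 184 in H9, 114 to 117 in clone 2 and 124 to 127 in clone 5. All 5 (TBXT, EOMES, MIXL1, GSC and FOXA2) were higher in clone 3 than in H9, and GATA6 and MESP1 were not detected on any array. Of the 5, 2 were lower in each ZFX clone than in H9, and 1 was lower in the ZFX than in the control lines. Only 1 mesendoderm gene was detected in clone 2 and 1 in clone 5, so those sums lie near the detection limit. Neural markers summed to 2664 to 2695 in H9, 2901 to 2966 in clone 3, 3979 to 4125 in clone 2 and 3740 to 3764 in clone 5, and the defining genes SOX1 and NEUROG2 were not detected on any array. Of 5 tested neural genes, 1 was higher in clone 3, 2 in clone 2 and 1 in clone 5 than in H9, 1 was higher in the ZFX than in the control lines, and 0 were lower. The neural sum is mostly TUBB3, a neuronal tubulin. TUBB3 had a mean log2 intensity of 10.96 in H9, 11.05 in clone 3, 11.68 in clone 2 and 11.55 in clone 5. In the same order, STMN2 was at 7.70, 8.26, 7.999 and 7.69. It was thus highest in clone 3, whereas TUBB3 was highest in clone 2. NES was at 8.53, 8.71, 8.67 and 8.78, and DCX at 6.22, 5.89, 6.27 and 6.27. PAX6, a factor of early neural cells, was at 4.87, 4.43, 4.64 and 4.51 and was not detected in clones 3 and 5. Fibroblast markers summed to 1816 to 1842 in clone 3 and 2600 to 2837 in the other lines. Of these, 3 of 4 tested genes were lower in clone 3 than in H9, and LUM and POSTN were not detected. The fibroblast sum is mostly THY1, with mean log2 intensities of 10.99 in H9, 10.47 in clone 3, 11.16 in clone 2 and 11.04 in clone 5. It is therefore no measure of fibroblast content. Trophoblast markers summed to 119.5 to 135.6 over all lines, 0 of 4 were called in any comparison, and CGA was not detected. What part the mesendoderm, fibroblast and neural markers have in the PCDHB5 and PCDHB9 differences was not tested.

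The 6 genes did not share 1 pattern over the lines. Against the mean of their centred log2 profiles over the 8 arrays, the Pearson correlation was 0.871 for PCDHB5, 0.749 for PCDHB3, 0.607 for PCDHB14, 0.120 for PCDHB4, 0.0304 for PCDHB9 and -0.745 for PCDHB2. The mean profile is thus mostly that of PCDHB5, the gene with the widest span. Between PCDHB5 and PCDHB9 the correlation was -0.272, and between PCDHB5 and PCDHB14 it was 0.659. Among 469 tested named genes outside the set whose line means span at least 1 log2 unit, those most like the mean profile were DPPA5 (0.967), LAYN (0.956), NRXN2 (0.949), MCOLN2 (0.938), HLA-DPB2 (0.937) and CDC42EP5 (0.932). DPPA5, an RNA-binding protein of pluripotent cells, had line means of 5.94 in H9, 4.85 in clone 3, 6.52 in clone 2 and 6.19 in clone 5. NRXN2, a presynaptic adhesion receptor, had means of 5.91, 5.06, 6.49 and 6.26 in the same order. These genes were picked for their likeness over 4 lines, each measured on 2 arrays, so their correlations are a description.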

How the data were processed

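Per the labels and tables, the authors deposited linear intensity values of each probe, a detection p-value beside each, and, separately, their own processed values, which are log2. The submitters' processing notes name BeadStudio, and further steps are not given in the sources used here. What background treatment the authors' log2 values had is not known, so they were used only as an alternative.

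Intensities were corrected with normexp (limma 3.58.1 in R 4.3.3) at an offset of 16, with negative controls read out of the detection p-values, then quantile normalized and put on the log2 scale. The 23280 probes with a detection p under 0.05 on 2 or more arrays were kept. Each gene was tested by its probe of highest mean and unnamed probes singly, 19124 tests in all. In limma, ZFX and control lines were compared with line as the random block (correlation 0.353) and pairs of lines through 4 line means. Variances were moderated with a trend, and p-values adjusted by Benjamini-Hochberg were called at 0.05. Groups come from the sample titles, gene names from the array annotation and gene order from RefSeq, since the files name no genome build. The fits were tested on simulated data.

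Besides all 10 members, the text names up to 4 called genes of each list and comparison by size of the log2 difference, ZFX, and the 6 genes most like the members' mean profile. In clone 3 against H9 the text also names the other called neighbours and regulators, a choice made once their values were known. The members and lists were chosen with earlier results of these data known. Alternatives varied the correction, scaling, filter, probes, variance model, pairing and arrays used.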

Additional observations from a re-analysis of the deposited data

Results flagged for a closer look

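PCDHB9 differed between the 2 ZFX clones. Its log2 difference from H9 was 0.68 in clone 2 and 0.21 in clone 5, and clone 5 lay below clone 2 by -0.48 (SE 0.125). The arrays of these clones did not overlap, at 7.77 and 7.52 in clone 2 and 7.004 and 7.34 in clone 5. PCDHB9 was chosen with this difference known, so no p is given. It drew attention because both clones carry extra ZFX and were compared with the same H9 arrays. In clone 3, which carries none, PCDHB9 was as high as in clone 2, at 7.45 and 7.57, and the ranges of these lines overlapped.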

How the results depend on the processing

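Of the differences of single members under all alternatives, 463 moved by less than the spread within lines, 50 moved by more and 0 reversed a call. In the ZFX lines against the control lines, 0 members were called without background correction, with normexp at offset 50 and no negative controls, with the stricter filter (detection p under 0.01, 4 or more arrays), without the intensity trend, with line means, with the line ignored and with the replicate block. The calls over all tests there were 321, with 191 without the trend, 12 with line means, 565 with the line ignored and 1097 with H9 as the only control, where the members' median was -0.0863. Median scaling called 1208 tests in clone 3, 558 in clone 2 and 205 in clone 5 against H9 and 48 between the ZFX clones, and 1, 0, 0 and 0 members. It moved the share of higher calls from 66.7% to 54.5% in the ZFX lines and from 57% to 46.4% in clone 2. Without the trend 2302, 1434 and 277 tests were called in clones 3, 2 and 5 against H9 and 48 between the ZFX clones, and 1, 0 and 0 members in clone 2, clone 5 and between the clones. Without the filter, 414 tests were called between the ZFX clones, members called were 1 in clone 2 and 0 between the clones, and the clone 3 median over 10 members was -0.0308. The stricter filter left 3 members, with medians of 0.135 in clone 3, 0.344 in clone 2 and 0.207 in clone 5, and with every probe tested the clone 3 median was -0.302. With 1 array left out, calls ran from 177 to 446 in the ZFX lines, 2369 to 3848 in clone 3, 1662 to 2999 in clone 2, 600 to 995 in clone 5 and 181 to 761 between the ZFX clones. Members called then ran from 0 to 1, 2 to 2, 1 to 2, 0 to 1 and 0 to 1, with medians of 0.000728 to 0.125, -0.246 to -0.0764, 0.0247 to 0.203, -0.153 to -0.0280 and -0.129 to -0.0780. Replicate numbers did not pair the arrays, with correlations of same-numbered deviations of -0.00991 to 0.0628 over 6 pairs, and the replicate block called 218 tests in the ZFX lines. The causes of these changes were not tested.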
